A study of Mus musculus with 31 samples.

Results

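Neuroblastomas of *TH-MYCN* mice that carried the F1178L mutation of *Alk* were compared with those that carried R1279Q, 11 *MYCN*/*Alk* F1178L tumors against 10 *MYCN*/*Alk* R1279Q tumors, 21 of the 31 tumors of the series. Tumors were taken into the comparison by the genotype in their titles, and the 10 *MYCN* tumors with wild-type *Alk* were left out. Both groups carry the *TH-MYCN* transgene, in which the tyrosine hydroxylase promoter drives human *MYCN* in the sympathetic lineage, and a knock-in (KI) point mutation at the mouse *Alk* locus, the R1279Q allele from 1 KI line. The sources used here give neither the number of mutant alleles per tumor nor which tumors came from the same mouse, and the tests treat the tumors as independent. The strain label of every tumor names both 129S2 and 129B6F1 without saying which. 129S2 stands for 129S2/SvPasCrl and 129B6F1 for an F1 background of intercrosses with C57Bl6/N, by the text of the study. Its table that lists tumors by number places 4 F1178L and 5 R1279Q tumors in 129S2 and 6 F1178L and 3 R1279Q tumors in 129B6F1, leaving 1 F1178L and 2 R1279Q tumors without a background. Mice with F1178L tumors were 5.14 to 6.29 weeks old in 129S2 and 9.14 to 19.1 weeks old in 129B6F1, and mice with R1279Q tumors 8.29 to 10.7 weeks in 129S2 and 16.6 to 27.1 weeks in 129B6F1. The ages of both mutations do not overlap within 129S2, so that mutation and age cannot be told apart there. Where sex is listed, F1178L tumors came from 5 females and 5 males and R1279Q tumors from 2 females and 6 males, and all 5 R1279Q tumors in 129S2 came from males.

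Alk is a receptor tyrosine kinase of developing sympathetic neurons, and mutations that activate its kinase occur in human neuroblastoma. The mouse residues F1178 and R1279 are the counterparts of the human positions most often hit. Sympathetic neuroblasts divide while they already make noradrenaline, and they then leave the cell cycle, extend axons filled with neurofilaments and microtubules, and build synaptic vesicles. Neuroblastoma arises from this lineage and can hold cells along the whole path.

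One array was hybridized per tumor, and the values are log2 expression on the GCRMA scale, in which a difference of 1 is a 2-fold change. Medians of the 21 arrays lay between 4.2 and 4.5. Neuroblast markers *Isl1*, *Stmn2*, *Elavl4*, *Th*, *Gata3* and *Phox2a* were above log2 4, the level used here as the lower limit of signal, in all 21 tumors, whereas *Hand2* stayed between 3.10 and 4.56. *Xist*, expressed from the inactive X chromosome, lay at 11.98 to 12.88 in the 7 tumors listed as female and at 2.31 to 3.12 in the 11 listed as male, and the Y-linked *Eif2s3y* gave the reverse split, so that 18 of 18 tumors matched their listed sex. An array for gene expression does not read the point mutations, and the level of *Alk* therefore says nothing on the labels. In the plot of principal components, the first component (23.9% of the variance) placed the 4 F1178L tumors in 129S2 and the F1178L tumor without a background at one end. Of the 6 F1178L tumors in 129B6F1, 5 lay among the R1279Q tumors on this component.

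**Figure D1:**
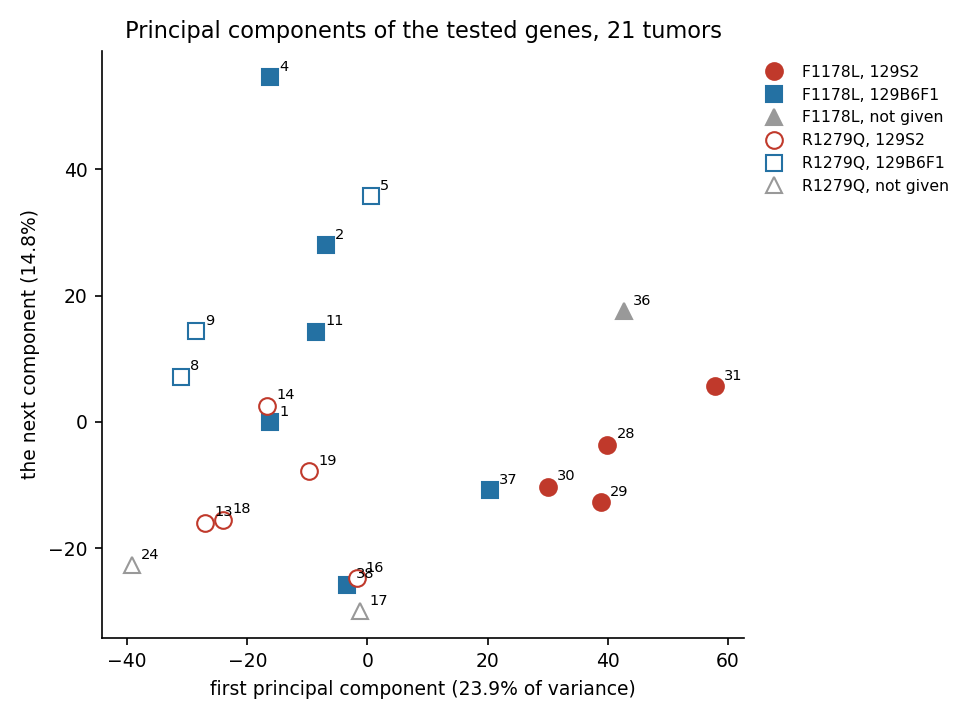
Principal components of the 9037 tested genes in the 21 tumors. Each point is 1 tumor with its number, filled for F1178L and open for R1279Q, with shape and color giving the background. The x axis holds 23.9% and the y axis 14.8% of the variance, and F1178L tumors 28 to 31 and 36 lie at the right end of the x axis, apart from all R1279Q tumors.

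Of 9037 rows above log2 4 in at least 10 of the 21 tumors, 166 (1.84%) were higher and 252 (2.79%) were lower in the F1178L group by limma at a Benjamini-Hochberg adjusted p under 0.05, 418 (4.63%) in all. At an unadjusted p under 0.05 there were 2328. The median difference over all tested genes was -0.05. A gene high only in F1178L could pass the limit on low values with 10 of 11 tumors, while one high only in R1279Q needed all 10, so that this limit admits the first kind more readily. Calls were close to the threshold for many genes, and 64 of the 166 and 82 of the 252 remained in each of the 21 fits that left out 1 tumor. Only *Prph* had all F1178L tumors above all R1279Q tumors (0.0111% of tested genes), and 4 genes had all of them below (0.0443%). Below, a gene is given by its lowest, median and highest level over the tumors of each group, and differences are F1178L minus R1279Q on the log2 scale with the standard error of the fit. Gene lists and their members were chosen with earlier results of these data known. Their counts and medians therefore describe the lists and are not tests of them.

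**Figure D2:**
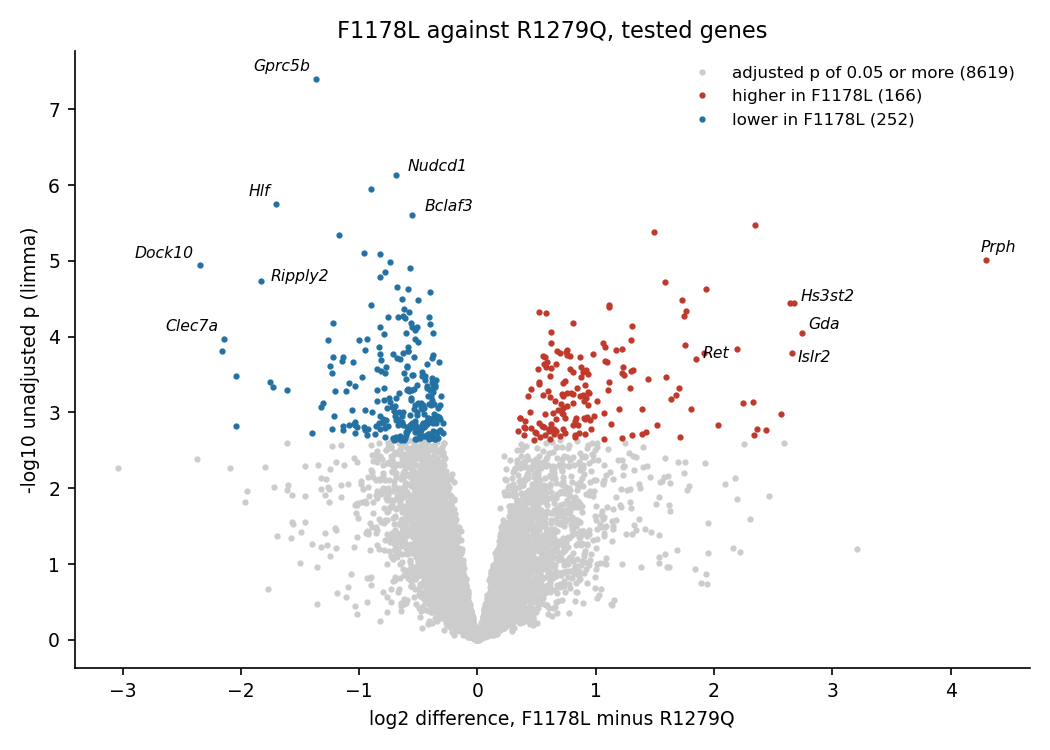
Difference of each of the 9037 tested genes (x axis, log2, F1178L minus R1279Q) against its unadjusted p on a -log10 scale (y axis). Red points are the 166 genes higher and blue points the 252 genes lower in F1178L, and *Prph* at 4.30 lies farthest to the right.

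In the pooled comparison *Alk* itself was not distinguishable between both mutations. Its levels were 7.93, 9.93 and 10.39 in F1178L tumors, against 8.77, 9.75 and 10.08 in R1279Q tumors. The difference was 0.06 (SE 0.24, adjusted p = 0.907), with a 95% interval of -0.44 to 0.57. F1178L tumor 4 was the lowest at 7.93, and without it the difference was 0.237, while without F1178L tumor 28 or R1279Q tumors 5 or 9 it was below 0. Within 129S2, *Alk* ran from 9.93 to 10.39 in F1178L and from 9.64 to 10.07 in R1279Q tumors. Within 129B6F1 it ran from 7.93 to 10.01 and from 8.77 to 9.95 in the same order, and the groups overlapped in both backgrounds. *Ret*, the receptor tyrosine kinase for ligands of the GDNF family, was higher in F1178L tumors. It lay at 8.46, 9.37 and 10.19 in F1178L tumors and at 5.22, 7.44 and 9.11 in R1279Q tumors, a difference of 1.85 (SE 0.41, adjusted p = 0.0184). All 11 F1178L tumors were above the R1279Q median and 7 of them above every R1279Q tumor, although the groups overlapped. The call was kept without any 1 tumor, and the difference was 2.12 within 129S2 and 1.43 within 129B6F1. Among the binding partners of Ret, the coreceptor *Gfra3*, which binds artemin, was at 7.96, 9.46 and 10.82 in F1178L tumors and 5.96, 8.76 and 10.60 in R1279Q tumors, a difference of 0.53 (SE 0.53, adjusted p = 0.563). The coreceptors *Gfra1* and *Gfra2*, and the ligands *Gdnf*, *Artn* and *Nrtn* were above log2 4 in none of the 21 tumors, nor was *Ltk*, the kinase closest to Alk.

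*Mycn*, the mouse counterpart of the transgene, was at 7.15, 8.86 and 9.68 in F1178L tumors and at 6.36, 7.37 and 8.84 in R1279Q tumors. The difference of 1.22 (SE 0.35, adjusted p = 0.049) stood just inside the threshold. The groups overlapped, and the call was lost in 14 of the 21 fits that left out 1 tumor, with adjusted p up to 0.0983. Within 129S2 the groups did not overlap, with F1178L tumors from 8.86 to 9.64 and R1279Q tumors from 6.36 to 8.37. Within 129B6F1 they did, from 7.15 to 9.68 in F1178L and from 6.67 to 8.80 in R1279Q tumors. Whether the mouse probes also read the human transgene was not tested. Of 9 tested genes of the Myc family and network, *Mycn* was the one called, where 1.84% of all tested genes were called higher. The median difference of this list was -0.04, beside -0.05 over all tested genes. Within 129S2, 2 of the 9 were called higher, against 11.9% of all tested genes there. Among 10 tested ERK targets and feedback inhibitors, genes that receptor kinases switch on, none was called, with a median of 0.30. In 129S2 4 of the 10 were called higher, against 11.9% of all tested genes there. Their median was 0.36 in 129S2 and 0.07 in 129B6F1. *Ier3* showed the largest pooled difference of the 10, 0.79 (SE 0.44, adjusted p = 0.257). Among 9 tested immediate early genes, 1 was called, against 1.84% of all tested genes called higher. This was *Klf6*, a zinc finger transcription factor. It lay at 8.15, 8.99 and 9.37 in F1178L tumors, against 6.78, 8.12 and 8.60 in R1279Q tumors. The difference was 0.89 (SE 0.21, adjusted p = 0.021), while the other 8 had differences below 0. The median of the immediate early list was -0.25, with 0.04 in 129S2 and -1.49 in 129B6F1.

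The largest difference was that of *Prph*, which encodes peripherin, the intermediate filament of peripheral neurons. Its levels were 8.88, 10.57 and 12.76 in F1178L tumors, against 2.88, 6.61 and 8.83 in R1279Q tumors. Every F1178L tumor was above every R1279Q tumor, and 1 R1279Q tumor was below log2 4. The difference was 4.30 (SE 0.75, adjusted p = 0.00766), a 19.7-fold higher level, and the call was kept without any 1 tumor. Within 129S2, F1178L tumors were between 12.06 and 12.76 and R1279Q tumors between 4.49 and 8.16. In 129B6F1, F1178L tumors ran from 8.88 to 10.57 and R1279Q tumors from 4.37 to 8.83, groups that barely stood apart. The differences were 6.17 (SE 0.62) in 129S2 and 2.21 (SE 0.85, adjusted p = 0.961) in 129B6F1.

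The promoter of this leading gene is shown from 250 bases before to 50 bases after its start (RefSeq, GRCm38.p6, chr15:99054924-99055223, plus strand), with the match to TATAAA in capitals.
Prph: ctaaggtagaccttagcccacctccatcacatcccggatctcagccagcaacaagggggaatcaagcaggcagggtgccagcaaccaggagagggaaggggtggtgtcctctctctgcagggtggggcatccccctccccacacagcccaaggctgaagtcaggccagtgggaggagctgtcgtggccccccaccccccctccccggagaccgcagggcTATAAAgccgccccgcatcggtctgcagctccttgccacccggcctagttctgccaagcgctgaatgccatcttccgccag
Searched on both strands, TATAAA, the letters of the TATA box, was in 8.3% of the promoters of the 7219 tested genes with one in the table, in 12.7% of 126 genes called higher and in 7.0% of 200 called lower.

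**Figure D3:**
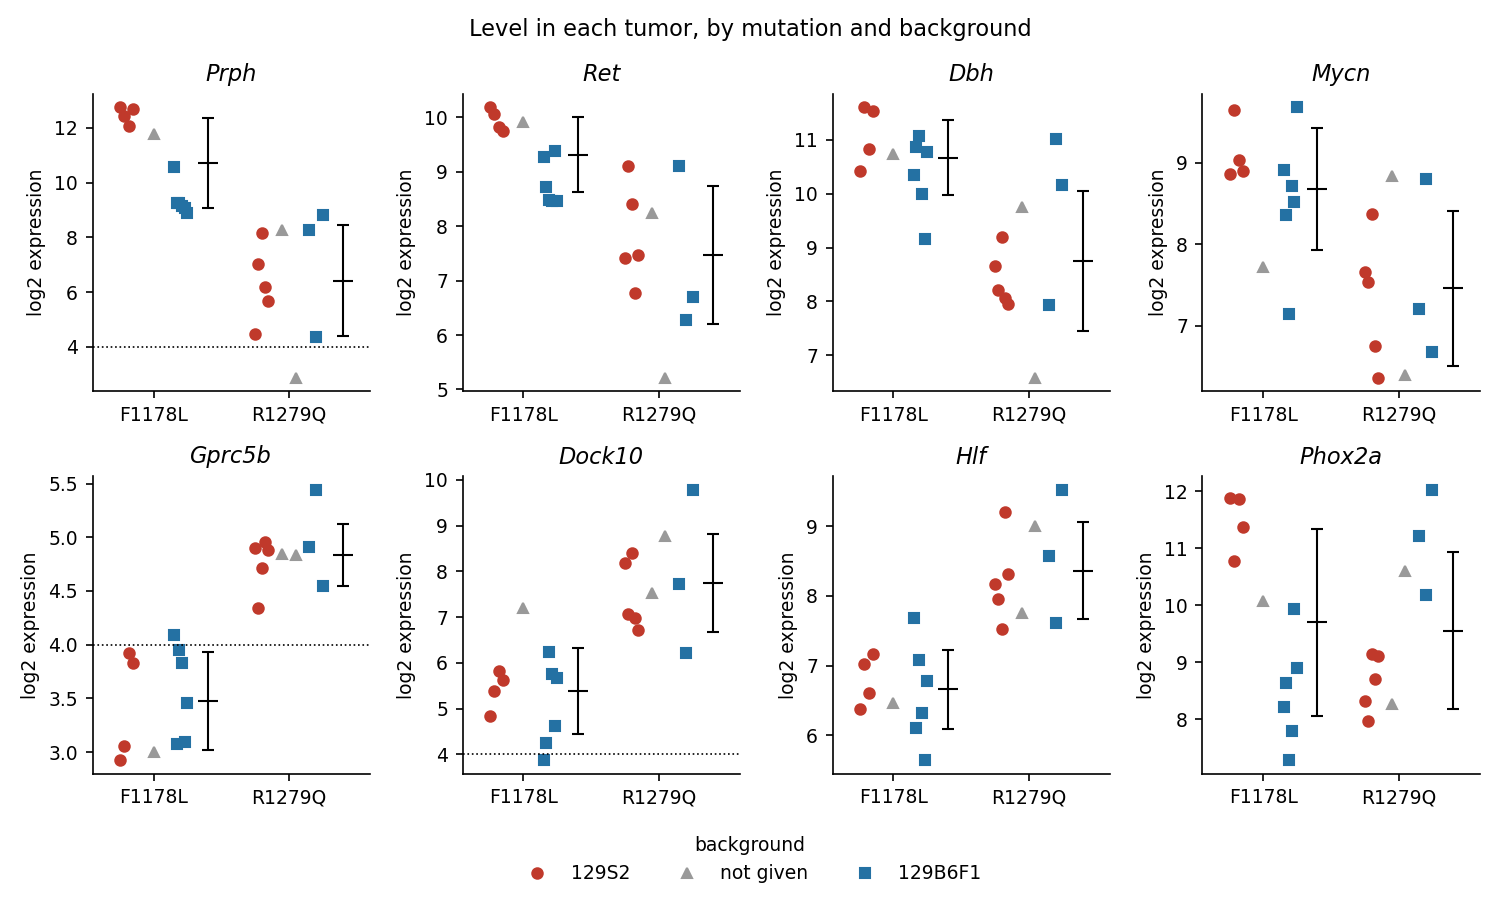
Level of 8 genes in each tumor (y axis, log2 expression), with F1178L left of R1279Q. Red circles are 129S2, blue squares 129B6F1 and grey triangles tumors without a background. Horizontal bars and whiskers give the mean and SD of each group, and the dotted line is log2 4. *Prph* and *Gprc5b* do not overlap between groups, while for *Phox2a* the order of both mutations is opposite in both backgrounds.

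Peripherin stood among many genes of the axon and its cytoskeleton. Of 25 tested genes of this list, 8 were higher and none lower in F1178L tumors, where 1.84% of all tested genes were called higher. The median difference over the list was 0.50, beside -0.05 over all tested genes, and 24 of 25 differences were above 0. *Prph* is itself 1 of the 8, and this list too was chosen with earlier results known, so that these counts only describe it. *Dpysl3*, a collapsin response mediator of growth cones, was at 9.52, 11.52 and 12.36 in F1178L tumors, against 8.61, 9.64 and 10.64 in R1279Q tumors, a difference of 1.73 (SE 0.33, adjusted p = 0.0118). *Mapt*, the microtubule-associated protein tau, was at 8.42, 9.47 and 10.06 in F1178L tumors and 6.30, 7.94 and 8.53 in R1279Q tumors, a difference of 1.30 (SE 0.28, adjusted p = 0.0165). For each of these genes, 9 of 11 F1178L tumors were above every R1279Q tumor, and both calls were kept without any 1 tumor.

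The other 5 genes called in this list rose with values nearer the threshold. *Sncg* (γ-synuclein) had levels of 4.98, 8.48 and 10.77 in F1178L tumors and 3.498, 6.24 and 7.12 in R1279Q tumors, a difference of 2.56 (SE 0.68, adjusted p = 0.037). *Tubb3*, the neuronal β-tubulin, was at 12.30, 13.40 and 13.78 in F1178L and 12.003, 12.49 and 12.95 in R1279Q tumors, a difference of 0.76 (SE 0.19, adjusted p = 0.027). *Uchl1*, a ubiquitin hydrolase of neurons, differed by 0.83 (SE 0.22, adjusted p = 0.0391), *L1cam*, an adhesion molecule of growing axons, by 0.91 (SE 0.26, adjusted p = 0.0462) and *Stmn2*, a regulator of microtubules in growth cones, by 0.62 (SE 0.18, adjusted p = 0.0491). The groups overlapped for all 5. Their calls were lost in 5 (*Tubb3*), 10 (*Sncg*), 12 (*Uchl1*), 13 (*L1cam*) and 13 (*Stmn2*) of the 21 fits without 1 tumor. Within 129S2, 16 of the 25 were called higher, against 11.9% of all tested genes there, and the median was 0.84, beside 0.61 in 129B6F1.

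Genes of synaptic vesicles and of exocytosis moved in the same direction. Of 19 tested genes, 4 were higher and none lower, where 1.84% of all tested genes were called higher, the median was 0.64, beside -0.05 over all tested genes, and all 19 differences were above 0. *Doc2b*, a calcium sensor of vesicle fusion, lay at 4.95, 6.67 and 7.17 in F1178L tumors, against 2.99, 5.25 and 6.25 in R1279Q tumors, a difference of 1.44 (SE 0.34, adjusted p = 0.0226). *Unc13a*, which primes vesicles, was at 5.88, 6.53 and 6.73 in F1178L and 4.81, 5.499 and 6.91 in R1279Q tumors, a difference of 0.81 (SE 0.19, adjusted p = 0.021). These calls were kept without any 1 tumor, though no F1178L tumor exceeded the highest R1279Q value for *Unc13a*. The vesicle protein synapsin 2 (*Syn2*) differed by 1.29 (SE 0.31, adjusted p = 0.0258), with 9 F1178L tumors above every R1279Q tumor and 1 below all of them, a call lost in 3 of the 21 fits without 1 tumor. *Snap25*, a SNARE protein, was at 12.88, 13.95 and 14.97 in F1178L and 12.14, 13.002 and 14.19 in R1279Q tumors, a difference of 0.85 (SE 0.23, adjusted p = 0.0423). Its difference was 1.16 in 129S2 but 0.09 in 129B6F1, and its call was lost in 15 of the 21 fits without 1 tumor. In 129S2, 15 of the 19 were called higher, against 11.9% of all tested genes there, with a median of 1.07, beside 0.31 in 129B6F1.

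**Figure D4:**
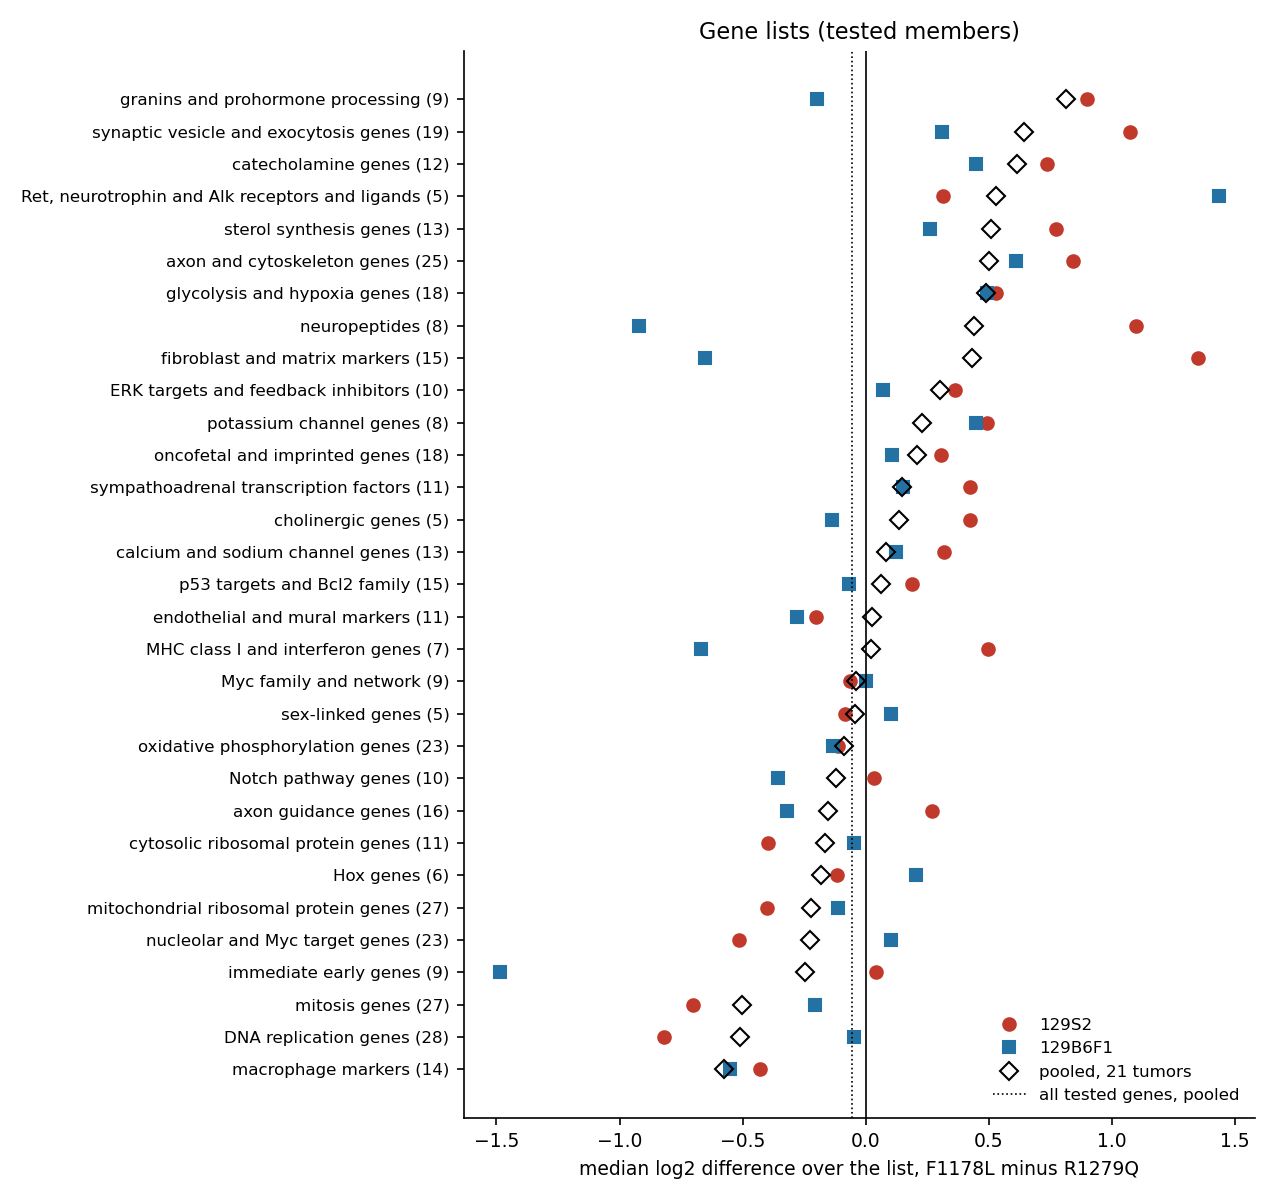
Median log2 difference (x axis, F1178L minus R1279Q) over the tested members of each gene list (y axis, number tested in brackets, lists with at least 5). Open diamonds are the pooled comparison, red circles 129S2, blue squares 129B6F1, and the dotted line is the median of all tested genes at -0.05. Axon, synaptic, catecholamine, glycolysis and sterol lists are among those that lie right of 0 in all 3, as do ERK targets and potassium channels. Neuropeptides, granins and fibroblast markers are among those on opposite sides of 0 in both backgrounds.

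The other genes among the 12 with the largest differences above 0 were named for the size of the difference alone. *Gda*, a guanine deaminase that also acts on dendrite branching, was at 5.91, 9.67 and 11.30 in F1178L tumors, against 4.91, 5.81 and 7.22 in R1279Q tumors, a difference of 2.75 (SE 0.57, adjusted p = 0.0151). *Hs3st2*, a heparan sulfate sulfotransferase of neurons, was at 4.55, 7.40 and 8.12 in F1178L and 3.16, 3.51 and 6.62 in R1279Q tumors, a difference of 2.67 (SE 0.52, adjusted p = 0.0118). Because 6 of the 10 R1279Q tumors were not above log2 4, the size rests in part on values under the limit, and it was 2.26 with values below 4 set to 4. *Pcdhb9*, a clustered protocadherin, was at 5.88, 7.46 and 8.92 in F1178L and 2.88, 4.67 and 7.83 in R1279Q tumors, a difference of 2.64 (SE 0.51, adjusted p = 0.0118). Protocadherins of this cluster are near-identical copies, and probes may not tell them apart. For *Gda* and *Hs3st2* every F1178L tumor was above the R1279Q median. *Islr2*, a membrane protein with leucine-rich repeats that acts in axon growth, had 3.30, 6.51 and 9.10 in F1178L tumors, against 2.13, 3.70 and 5.76 in R1279Q tumors. With R1279Q values below log2 4 set to 4, it was higher by at least 2.18 (fitted adjusted p = 0.0178). *Grm7*, a metabotropic glutamate receptor, was at 3.51, 7.60 and 8.85 in F1178L and 2.29, 4.84 and 6.31 in R1279Q tumors and differed by 2.44 (SE 0.68, adjusted p = 0.0446), a call lost in 13 of the 21 fits without 1 tumor.

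*S100a10*, the partner of annexin A2, lay at 7.70, 9.84 and 11.502 in F1178L tumors, against 5.68, 7.61 and 8.79 in R1279Q tumors, a difference of 2.19 (SE 0.48, adjusted p = 0.0178). All R1279Q tumors were exceeded by 9 of 11 F1178L tumors, and the call was kept without any 1 tumor. *Crabp1*, which binds retinoic acid in the cytoplasm, was spread widely over F1178L tumors, at 3.78, 7.13 and 9.84, and lay low in R1279Q tumors, at 3.46, 4.28 and 5.46. Above all R1279Q tumors were 8 F1178L tumors, 3 were below their median, and the difference was 2.34 (SE 0.67, adjusted p = 0.0468). The secreted matrix protein *Ccn3* was above log2 4 in 9 of 11 F1178L tumors and in 3 of 10 R1279Q tumors, higher by at least 1.78 (fitted adjusted p = 0.0313). *Rnf152*, a lysosomal ubiquitin ligase, was above it in 10 F1178L and 3 R1279Q tumors, higher by at least 1.79 (adjusted p = 0.0438), and R1279Q tumor 5 reached 7.59. In 129S2 its levels ran from 6.77 to 8.52 in F1178L and from 3.45 to 4.14 in R1279Q tumors. In 129B6F1 the groups overlapped, from 3.90 to 5.79 in F1178L and from 2.11 to 7.59 in R1279Q tumors. *9530059O14Rik*, a transcript without a known role here, differed by 2.04 (SE 0.56, adjusted p = 0.0423). Calls of *Crabp1*, *Ccn3*, *Rnf152* and *9530059O14Rik* were lost in 13, 7, 14 and 12 of the 21 fits without 1 tumor. A row without a gene name, whose difference lay between those of *Ccn3* and *S100a10*, was not counted among the 12.

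All 12 tested genes of catecholamine synthesis, storage and uptake had differences above 0 in the pooled comparison. In 129S2, 6 of 12 tested genes were called higher, against 11.9% of all tested genes there. In the pooled comparison 1 of the 12 passed the test, where 1.84% of all tested genes were called higher. This was *Dbh*, dopamine β-hydroxylase, which turns dopamine into noradrenaline. It was at 9.16, 10.79 and 11.61 in F1178L tumors, against 6.58, 8.44 and 11.01 in R1279Q tumors, a difference of 1.92 (SE 0.42, adjusted p = 0.0178) that was kept without any 1 tumor. All F1178L tumors were above the R1279Q median, 3 of them above every R1279Q tumor. In 129S2 the groups did not overlap, with F1178L tumors from 10.42 to 11.61 and R1279Q tumors from 7.95 to 9.20. In 129B6F1 they did, from 9.16 to 11.08 in F1178L and from 7.94 to 11.01 in R1279Q tumors. *Th*, the enzyme that limits the rate of the pathway, was high in both groups, at 12.58, 13.12 and 13.96 in F1178L and 10.66, 12.05 and 13.57 in R1279Q tumors, and its difference of 0.94 (SE 0.28, adjusted p = 0.0537) stood just outside the threshold. The vesicular transporter *Slc18a2* differed by 0.43 (SE 0.34, adjusted p = 0.443), with a 95% interval of -0.27 to 1.14, and *Slc18a1*, the other transporter of the family, was above log2 4 in 8 F1178L and 2 R1279Q tumors (adjusted p = 0.109). Within 129B6F1 the difference of *Slc18a2* was below 0. The median over the list was 0.61, with 0.73 in 129S2 and 0.45 in 129B6F1, where none of these genes was called.

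The *Dbh* promoter is shown as that of the called catecholamine gene (RefSeq, GRCm38.p6, chr2:27165257-27165556, plus strand), with its 3 matches to ATTAG, a core that homeodomain factors such as Phox2a recognize, in capitals.
Dbh: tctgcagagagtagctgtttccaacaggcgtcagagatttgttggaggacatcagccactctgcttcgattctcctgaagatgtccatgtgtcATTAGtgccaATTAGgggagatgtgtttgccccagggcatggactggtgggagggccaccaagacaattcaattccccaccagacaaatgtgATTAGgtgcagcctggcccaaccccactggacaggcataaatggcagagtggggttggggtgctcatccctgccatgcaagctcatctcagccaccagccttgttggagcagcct
Searched on both strands, at least 3 matches to ATTAG were in 0.402% of the 7219 promoters, in 1.59% of those of genes called higher (2 of 126, *Dbh* being 1 of them) and in 0.0% of those called lower, and at least 1 match was in 19.4% of the 7219 and in 20.6% of those called higher. Searched in the same way, CACGTG, the E-box that Myc factors bind, was in 868 of the 7219, in 13 of the 126 called higher and in 16 of the 200 called lower, and TTTGAA, a motif of cell cycle promoters, in 1027, 17 and 36 of them.

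Peptides and granins are packed into the large dense-core vesicles of neuroendocrine cells. None of 9 tested granin and prohormone processing genes and none of 8 tested neuropeptides was called, with medians of 0.81 and 0.44. In 129S2, 5 of the 9 and 4 of the 8 were called higher, against 11.9% of all tested genes there, with medians of 0.90 and 1.10, while the medians in 129B6F1 were -0.20 and -0.92. *Scg2* (secretogranin II) showed the largest difference of its list, 1.62 (SE 0.62, adjusted p = 0.111). *Vgf*, a secreted peptide precursor, was at 6.80, 9.503 and 11.63 in F1178L and 6.42, 8.40 and 11.56 in R1279Q tumors, a difference of 1.09 (SE 0.60, adjusted p = 0.257) with an interval of -0.15 to 2.33. *Vip*, the vasoactive intestinal peptide of cholinergic sympathetic neurons, ran over nearly the whole scale in both groups, at 2.49, 13.09 and 14.70 in F1178L tumors and 2.55, 8.34 and 15.09 in R1279Q tumors. It differed by 3.21 (SE 1.64, adjusted p = 0.22), by 6.19 in 129S2 (adjusted p = 0.0106) and by -1.23 in 129B6F1. Of 5 tested cholinergic genes none was called, with a median of 0.13. Too low to be tested, acetylcholinesterase (*Ache*) was above log2 4 in 5 of 11 F1178L tumors and in 0 of 10 R1279Q tumors, and the vesicular acetylcholine transporter *Slc18a3* in 2 and 0, while *Slc5a7*, the choline transporter, was above it in no tumor.

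Transcription factors of the lineage were not called either. Of 11 tested sympathoadrenal factors, 8 had differences above 0 and the median was 0.15. In 129S2 4 of them were called higher and 1 lower, against 11.9% and 16.7% of all tested genes there. *Gata2* had the largest, 1.21 (SE 0.47, adjusted p = 0.115). *Nrp1*, a receptor for semaphorins and vascular growth factor, was the one called of 16 tested axon guidance genes. It was at 9.56, 11.17 and 11.47 in F1178L tumors, against 8.41, 9.58 and 10.82 in R1279Q tumors. The difference was 1.22 (SE 0.28, adjusted p = 0.021), kept without any 1 tumor. The list had a median of -0.15, with 7 differences above 0 and 9 below, and 1.84% of all tested genes were called higher. In 129S2 6 of the 16 were called higher and 2 lower, with a median of 0.27, beside -0.32 in 129B6F1. None was called of 8 potassium channel genes (*Kcnd2*, 1.53, adjusted p = 0.252), 13 calcium and sodium channel genes (*Scn3b*, at least 0.11, fitted adjusted p = 0.073), 10 Notch pathway genes (*Hes6*, -0.30, adjusted p = 0.302), 15 p53 targets and Bcl2 family genes (*Phlda3*, 0.91, adjusted p = 0.229), 6 Hox genes (*Hoxc8*, -1.497, adjusted p = 0.279) and 18 oncofetal and imprinted genes (*Peg10*, -1.49, adjusted p = 0.168). In brackets is the member with the largest difference. Within 129S2, 2 of the potassium channel genes were called higher, and 3 of the calcium and sodium channel genes higher and 1 lower. Of the Notch genes 1 was higher and 2 lower, and of the p53 and Bcl2 genes 4 higher and 1 lower. Of the Hox genes 0 were called, and of the oncofetal and imprinted genes 3 were higher and 2 lower. These counts stand beside 11.9% higher and 16.7% lower of all tested genes in 129S2.

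Lower in F1178L tumors were genes of varied kinds. *Gprc5b*, an orphan receptor, had the smallest p, with levels of 2.92, 3.46 and 4.09 in F1178L tumors, against 4.34, 4.86 and 5.44 in R1279Q tumors. Both groups did not overlap, and 10 of 11 F1178L tumors were at or below log2 4, so that it was lower by at least 0.83 (fitted adjusted p = 0.000357). *Nudcd1*, a protein of the NudC family, was at 6.96, 7.32 and 7.55 in F1178L and 7.67, 7.95 and 8.42 in R1279Q tumors, a difference of -0.69 (SE 0.10, adjusted p = 0.00329). *Bclaf3*, related to the RNA-binding factor Bclaf1, was at 7.94, 8.29 and 8.48 in F1178L and 8.54, 8.83 and 9.10 in R1279Q tumors, a difference of -0.55 (SE 0.09, adjusted p = 0.00451). *Arid2*, a subunit of a SWI/SNF chromatin complex, was at 8.39, 8.76 and 8.91 in F1178L and 8.91, 9.14 and 9.28 in R1279Q tumors, a difference of -0.38 (SE 0.08, adjusted p = 0.0151). These 4 genes had every F1178L tumor below every R1279Q tumor. Their differences were small next to that of *Prph*, with a spread of less than 1 log2 unit within each group except for both groups of *Gprc5b*.

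Larger differences in this direction came with overlap between groups. *Dock10*, a guanine nucleotide exchange factor, was at 3.87, 5.62 and 7.20 in F1178L tumors, against 6.21, 7.63 and 9.79 in R1279Q tumors, a difference of -2.35 (SE 0.41, adjusted p = 0.00792) that was -2.05 in 129S2 and -2.84 in 129B6F1. *Hlf*, a PAR bZIP transcription factor under clock control, was at 5.64, 6.61 and 7.68 in F1178L and 7.52, 8.24 and 9.53 in R1279Q tumors, a difference of -1.70 (SE 0.26, adjusted p = 0.00396), with 10 of 11 F1178L tumors below all R1279Q tumors. *Ripply2*, a corepressor of somite formation, was at 3.45, 4.498 and 5.98 in F1178L and 5.19, 6.27 and 7.22 in R1279Q tumors, a difference of -1.83 (SE 0.34, adjusted p = 0.00953), or of -1.64 with values below log2 4, found in 5 F1178L tumors, set to 4. *Ttc32*, a protein of tetratricopeptide repeats, differed by -1.26 (SE 0.27, adjusted p = 0.0165). Calls of these 4 were kept without any 1 tumor.

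*Ppp1r17*, a phosphatase inhibitor known from Purkinje cells, was at 6.90, 8.46 and 11.502 in F1178L tumors, against 8.49, 11.03 and 12.02 in R1279Q tumors, with a difference of -2.04 (SE 0.56, adjusted p = 0.0426), of -3.85 in 129S2 and of -0.89 in 129B6F1. *Ctla2b*, related to cathepsin propeptides, differed by -1.75 (SE 0.42, adjusted p = 0.0241), *Il18bp*, which binds interleukin 18, by -1.72 (SE 0.42, adjusted p = 0.0256), *Snord14e*, a small nucleolar RNA, by -1.61 (SE 0.39, adjusted p = 0.0258), *Fut9*, a fucosyltransferase that makes the Lewis X epitope, by -1.31 (SE 0.33, adjusted p = 0.0314) and *Fam81a* by -1.40 (SE 0.39, adjusted p = 0.046). For each of them except *Ppp1r17*, all 11 F1178L tumors were below the R1279Q median. These calls were less firm and were lost in 13 (*Ppp1r17*), 1 (*Ctla2b*), 2 (*Il18bp*), 1 (*Snord14e*), 8 (*Fut9*) and 14 (*Fam81a*) of the 21 fits without 1 tumor.

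Genes of the cell cycle lay lower in F1178L tumors as lists, though few passed the test one by one. All 28 tested DNA replication genes had differences below 0, with a median of -0.51, and 2 of them were called lower. All 27 tested mitosis genes were below 0 as well, with a median of -0.50, and 3 were called lower, where 2.79% of all tested genes were called. *Gins2*, a subunit of the replicative helicase, lay at 3.91, 5.33 and 6.77 in F1178L tumors, against 5.84, 6.68 and 7.28 in R1279Q tumors, a difference of -1.14 (SE 0.31, adjusted p = 0.0426). *Rfc4*, a clamp loader, differed by -0.69 (SE 0.20, adjusted p = 0.049). Of the mitosis genes, *Kif2c*, a kinesin that takes microtubules apart, was at 6.16, 7.22 and 7.80 in F1178L and 7.27, 7.93 and 8.25 in R1279Q tumors, a difference of -0.74 (SE 0.19, adjusted p = 0.0311). The checkpoint kinases *Ttk* and *Bub1b* differed by -0.77 (SE 0.21, adjusted p = 0.0402) and by -0.85 (SE 0.24, adjusted p = 0.0426). All 5 calls were lost in some of the 21 fits without 1 tumor, between 7 (*Kif2c*) and 14 (*Rfc4* and *Ttk*) of them. In 129S2, 17 replication and 15 mitosis genes were called lower, against 16.7% of all tested genes there, with medians of -0.82 and -0.70. In 129B6F1 the medians were -0.05 and -0.21, beside -0.02 over all tested genes.

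*Palb2*, *Chek2*, *Fancb* and *Wdr76* were named after their values were seen, so that their common direction was fixed by the choice. *Palb2*, a partner of the repair protein Brca2, was at 3.92, 5.76 and 6.27 in F1178L tumors, against 6.06, 6.61 and 6.89 in R1279Q tumors, a difference of -1.15 (SE 0.26, adjusted p = 0.0187) with all F1178L tumors below the R1279Q median. The kinase *Chek2* differed by -1.21 (SE 0.32, adjusted p = 0.0384), the Fanconi anemia gene *Fancb* by -1.06 (SE 0.28, adjusted p = 0.0343) and *Wdr76*, a WD repeat protein, by -1.13 (SE 0.32, adjusted p = 0.0446). The call of *Palb2* was kept without any 1 tumor, and those of *Chek2*, *Fancb* and *Wdr76* were lost in 9, 10 and 14 of the 21 fits.

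Few genes of ribosomes and growth were called in the pooled comparison, where 2.79% of all tested genes were called lower. *Cdk4*, the kinase of the G1 phase, was the one called of 23 tested nucleolar and Myc target genes, at 9.02, 9.49 and 9.96 in F1178L tumors and 9.75, 9.98 and 10.48 in R1279Q tumors, a difference of -0.505 (SE 0.13, adjusted p = 0.0314). The list had a median of -0.23, with 22 of 23 differences below 0. Of 27 tested mitochondrial ribosomal protein genes, *Mrpl3* was called, with a difference of -0.40 (SE 0.10, adjusted p = 0.0258), and 26 were below 0 (median -0.22). No gene was called among 11 cytosolic ribosomal protein genes (*Rpl14*, -0.40, adjusted p = 0.0639) or 23 oxidative phosphorylation genes (*Sdhc*, 0.31, adjusted p = 0.0972), with medians of -0.16 and -0.09. In 129S2, 11 of the 23 nucleolar (median -0.52), 11 of the 27 mitochondrial ribosomal (median -0.40) and 5 of the 11 cytosolic ribosomal genes (median -0.40) were called lower, against 16.7% of all tested genes there, and of the oxidative phosphorylation genes 3 were lower and 1 higher. In 129B6F1 these 4 medians, in the same order, were 0.10, -0.11, -0.05 and -0.13. Calls of *Cdk4* and *Mrpl3* were lost in 6 and 4 of the 21 fits without 1 tumor.

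Genes of sugar and sterol metabolism lay higher in F1178L tumors. Of 18 tested glycolysis and hypoxia genes, 3 were called higher, where 1.84% of all tested genes were, with a median of 0.49, beside -0.05 over all tested genes, and 15 differences above 0. All 3 encode enzymes at known control points of glycolysis. *Pfkp*, a phosphofructokinase, was at 7.93, 8.40 and 9.26 in F1178L tumors, against 7.13, 7.94 and 8.31 in R1279Q tumors, a difference of 0.62 (SE 0.14, adjusted p = 0.0201) that was kept without any 1 tumor. *Pfkl*, its liver-type counterpart, differed by 0.86 (SE 0.24, adjusted p = 0.046) and *Pkm*, pyruvate kinase, by 0.48 (SE 0.14, adjusted p = 0.0494), calls lost in 15 and 17 of the 21 fits. This list had about the same median in both backgrounds, 0.53 in 129S2 and 0.49 in 129B6F1. Of 13 tested sterol synthesis genes, all with differences above 0 (median 0.51), *Nsdhl* and *Dhcr7*, which act in late steps towards cholesterol, were called higher, against the same 1.84%. *Nsdhl* was at 8.14, 8.91 and 9.72 in F1178L and 7.26, 8.003 and 8.54 in R1279Q tumors, a difference of 0.88 (SE 0.21, adjusted p = 0.0217), and *Dhcr7* differed by 0.79 (SE 0.20, adjusted p = 0.027). The call of *Dhcr7* was lost in 6 of the 21 fits, and with background as a covariate none of the 13 was called.

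Markers of other cell types that a tumor can hold were followed as lists. In bulk tissue, fewer cells of a type and less RNA per cell cannot be told apart. Macrophage markers lay lower in F1178L tumors, with 13 of 14 differences below 0 (median -0.57). Of the 14, 1 was called lower, against 2.79% of all tested genes. *Lyz2*, the lysozyme of macrophages, was the one called, at 9.64, 10.79 and 11.86 in F1178L tumors, against 10.20, 12.31 and 13.53 in R1279Q tumors, a difference of -1.32 (SE 0.34, adjusted p = 0.0334), lost in 8 of the 21 fits without 1 tumor. *Clec7a*, the β-glucan receptor of macrophages and dendritic cells, was among the largest differences, at 3.92, 6.01 and 7.49 in F1178L and 6.15, 7.80 and 10.61 in R1279Q tumors, a difference of -2.14 (SE 0.45, adjusted p = 0.0165) that was kept in all 21. The level summed over the macrophage list, in log2 units, ran from 11.63 over a median of 12.47 to 13.09 in F1178L tumors and from 12.04 over 13.23 to 14.42 in R1279Q tumors, with *Itgam* and *Fcgr1* at or below log2 4 in all tumors. Of the pan-leukocyte gene *Ptprc*, levels were 4.60, 6.18 and 8.51 in F1178L and 5.03, 6.82 and 8.63 in R1279Q tumors, a difference of -0.41 (SE 0.42, adjusted p = 0.575).

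None of 15 tested fibroblast and matrix markers was called (*Dcn*, 1.38, adjusted p = 0.299), and their summed level ran from 12.29 to 14.77 in F1178L and from 10.56 to 14.50 in R1279Q tumors, with a median difference of 1.35 in 129S2 and -0.65 in 129B6F1. None of 11 endothelial and mural markers was called (*Vwf*, 0.95, adjusted p = 0.091), with summed levels of 9.20 to 12.26 in F1178L and 8.77 to 13.31 in R1279Q tumors. Of the Schwann cell markers 4 of 17 could be tested (*Fabp7*, 1.14, adjusted p = 0.582), and *Sox10*, *Erbb3* and *S100b* were at or below log2 4 in all 21 tumors. Their summed level ran from 9.63 to 12.97 in F1178L and from 10.16 to 11.22 in R1279Q tumors. Markers of the adrenal cortex such as *Star*, *Cyp11a1* and *Nr5a1* and of T cells such as *Cd3e*, *Cd4* and *Cd8a* were likewise at or below log2 4 in all tumors. *Pnmt*, the adrenaline enzyme of chromaffin cells, was above it in 2 F1178L tumors and 1 R1279Q tumor and reached 10.47 in an F1178L and 6.96 in an R1279Q tumor. Summed over the chromaffin and adrenal cortex list, levels ran from 10.09 to 13.03 in F1178L and from 9.90 to 11.33 in R1279Q tumors. For erythroid markers they ran from 5.23 over a median of 5.48 to 10.62 in F1178L and from 5.21 over 5.30 to 6.04 in R1279Q tumors, for T, B and plasma cell markers from 6.63 to 9.49 and from 6.77 to 9.75, and for fat, muscle and kidney markers from 7.75 to 14.12 and from 9.60 to 12.83. *Adipoq*, a fat marker, differed by 1.13 (SE 1.14, adjusted p = 0.566). *Ifitm3* had the largest difference of 7 MHC class I and interferon genes, 0.87 (SE 0.40, adjusted p = 0.181). What part these cells have in the other differences was not tested.

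Within backgrounds the comparison gave unlike counts. In 129S2, 1077 genes (11.9%) were higher and 1513 (16.7%) lower in the 4 F1178L tumors than in the 5 R1279Q tumors, 2590 (28.7%) in all, and without any 1 of these 9 tumors the counts ran from 776 to 1128 higher and from 916 to 1513 lower. In 129B6F1, with 6 F1178L and 3 R1279Q tumors, 0 genes were called by limma and 450 had an unadjusted p under 0.05. Precision differed as well, since the median standard error of a difference was 0.161 in 129S2 and 0.285 in 129B6F1. All 418 genes of the pooled comparison had the same sign in 129S2, and 164 of the 166 higher and 251 of the 252 lower genes in 129B6F1, counts that are not independent because the same tumors made the calls. Over these genes the median size of the difference was 0.852 in 129S2 and 0.445 in 129B6F1. A fit to 18 tumors with background as a term gave 224 genes higher (2.48%) and 231 lower (2.56%), 455 (5.03%) in all, with 115 and 137 of the pooled calls among them. With background and sex, 144 were higher (1.59%) and 122 lower (1.35%), 266 (2.94%) in all. With background and age, 8 were higher and 2 lower. The same 18 tumors without a covariate gave 7 and 18.

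**Figure D5:**
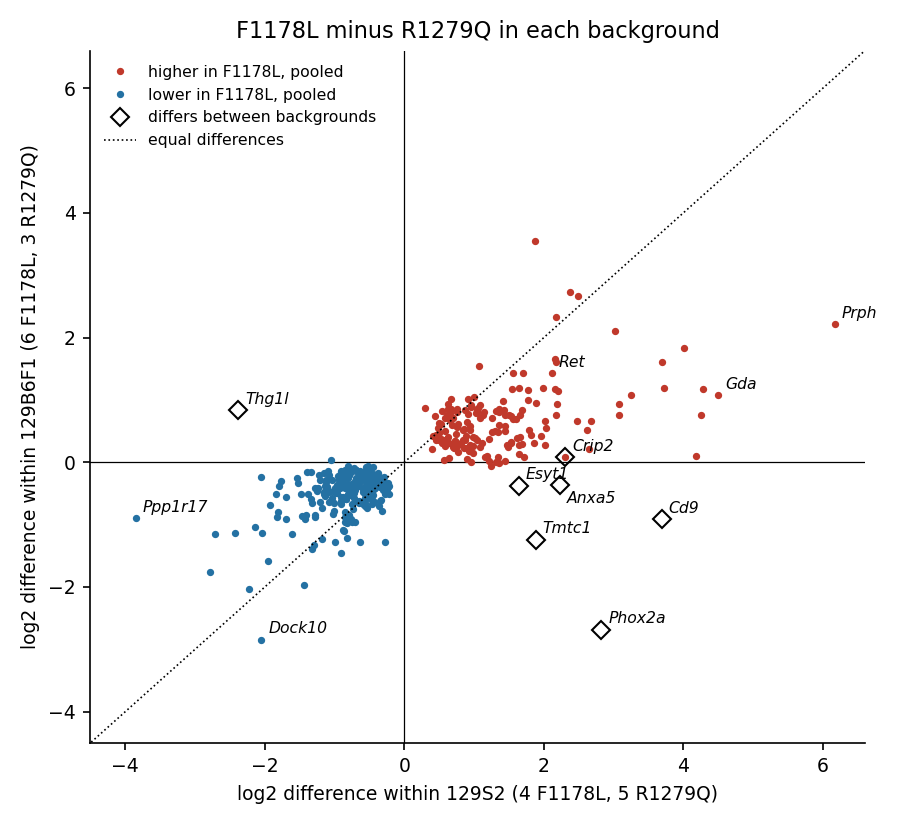
Difference between mutations (log2, F1178L minus R1279Q) in 129S2 (x axis) and in 129B6F1 (y axis) for the 166 genes higher (red) and 252 lower (blue) in the pooled comparison. Open diamonds are the 7 genes whose difference differed between backgrounds, and the dotted line marks equal differences. *Prph* lies at 6.17 and 2.21, and *Phox2a* at 2.82 and -2.68.

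For 7 genes (0.0775%) the difference between mutations itself differed between 129S2 and 129B6F1 by the interaction term in limma, and 1380 had an unadjusted p under 0.05. *Phox2a*, a homeodomain factor that specifies noradrenergic neurons, stood out. In 129S2 it was at 10.78 to 11.87 in F1178L tumors, above all R1279Q tumors at 7.98 to 9.14. In 129B6F1 the order was opposite, with F1178L tumors at 7.29 to 9.94, below all R1279Q tumors at 10.19 to 12.03. The difference was 2.82 in 129S2 and -2.68 in 129B6F1, an interaction of 5.505 (SE 0.68, adjusted p = 0.00303), and it was called in 18 of 18 fits that left out 1 tumor. The tetraspanin *Cd9* differed by 3.69 in 129S2 and -0.91 in 129B6F1 (interaction 4.60, adjusted p = 0.0299). *Anxa5*, an annexin, gave 2.23 and -0.36 in the same order, *Esyt1*, an extended synaptotagmin, 1.64 and -0.37, *Tmtc1*, an O-mannosyltransferase, 1.88 and -1.24, and the LIM protein *Crip2* 2.30 and 0.08. *Thg1l*, which adds a guanine to histidine tRNA, ran the other way, with -2.38 in 129S2 and 0.83 in 129B6F1. Without 1 tumor the number of such genes ran from 1 to 56, and these 6 were called in 5 (*Thg1l*) to 11 (*Crip2*) of the 18 fits. *Crip2* was also called in the pooled comparison, with 1.13 (SE 0.31, adjusted p = 0.0419).

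Called genes were spread over the chromosomes. On chromosome 3, 16 of 435 tested genes were higher (3.68%) and 4 lower (0.92%), against 1.84% and 2.79% of all tested genes. On chromosome 10, 5 of 438 were higher and 26 lower (5.94%), and on chromosome 2, 8 of 711 were higher and 31 lower (4.36%). Chromosome 17, which holds *Alk*, had 2 of 408 higher and 10 lower. Among the 40 tested genes nearest to *Alk*, 20 on each side, none was higher and 2 were lower, with a median difference of -0.13. Both were picked for their place, after the values were seen. *Ddx11*, a DNA helicase, was at 3.42, 4.45 and 5.86 in F1178L tumors, against 4.86, 5.44 and 6.43 in R1279Q tumors, a difference of -1.09 (SE 0.26, adjusted p = 0.0243), and *Prkd3*, a protein kinase D, differed by -0.61 (SE 0.18, adjusted p = 0.0482), lost in 17 of the 21 fits without 1 tumor. The segments that flank both KI alleles can come from different strains, and their part in these values was not tested, nor was that of chromosome gains and losses in the tumors.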

How the data were processed

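RNA of neuroblastomas was hybridized to Affymetrix mouse genome arrays, 1 per tumor. The deposited values are log2 expression that the authors normalized by GCRMA, which corrects background by probe sequence, with Brainarray annotations, without version or further steps given in the sources used here. They were used as they stand (range 1.39 to 15.46). Arrays hold no read depth, and precision rests on how many tumors there are and how far a probe lies above background. Of 17306 rows, 16464 could be named through the platform and RefSeq tables and 842 were kept unnamed, 381 of them among those tested.

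Groups came from the tumor titles, and background, sex and age of 18 tumors from a table of the study by tumor number. Rows above log2 4 in at least 10 of 21 tumors were compared with limma 3.58.1 (lmFit, eBayes) in R 4.3.3, two-sided, with Benjamini-Hochberg adjustment and a threshold of 0.05. Where a lower group mean was under log2 4, its values below 4 were set to 4 and the difference was given as a bound. Lists, 36 in all with 436 tested of 774 symbols, were described by counts and medians, without a test. Named were *Alk*, *Mycn*, *Ret*, *Vgf*, *Vip*, *Th*, *Dbh* and *Slc18a2*, the 12 largest differences of named rows each way past the threshold with a higher group mean of at least log2 6, up to 3 called members of each list by adjusted p (with none called, the largest difference), up to 6 genes each way whose groups do not overlap, and the genes of the interaction. Other called members of the axon and synapse lists were added. Members and lists were chosen with earlier results of these data known. The script was tested on simulated data. Alternatives were a limit on low values at log2 6 or none, arrays normalized by quantiles or to equal medians, the methods' t-test, *MYCN* tumors in the fit, array weights, trended and robust moderation, covariates, background subsets, males alone and leaving out each tumor. Leaving out tumors in the interaction and within 129S2 was added after the data were seen. Plots used matplotlib 3.10.9 (Python 3.11.15).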

Additional observations from a re-analysis of the deposited data

Results flagged for a closer look

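For 7 genes the difference between F1178L and R1279Q tumors was not the same in both backgrounds by the interaction term of limma (adjusted p under 0.05). The difference in 129S2 minus that in 129B6F1 was 5.505 for *Phox2a*, 4.601 for *Cd9*, 3.122 for *Tmtc1*, 2.591 for *Anxa5*, 2.221 for *Crip2*, 2.017 for *Esyt1* and -3.217 for *Thg1l*. The F1178L mice were younger than the R1279Q mice in 129S2, and their median age was also lower in 129B6F1 (16.5 against 25.9 weeks). In 129S2 all 5 R1279Q tumors came from males, and the F1178L tumors from 2 females and 2 males. The part of age and of sex in these 7 genes was not tested.

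In 6 genes, 1 of the 10 R1279Q tumors stood far from the others of its group. The F1178L group, with 11 tumors, was not screened in this way. Tumor 5 was the highest for *Dhcr7* (8.327, next 7.676) and *Rnf152* (7.589, next 4.674) and the lowest for *Prkd3* (7.235, next 8.065). Tumor 8 was the highest for *Vwf* (6.793, next 5.229) and *Ddx11* (6.432, next 5.672), and tumor 9 for *Slc18a1* (6.661, next 4.676). Chance flags about 1 in 20 such groups, and 93 genes were looked at. All 3 tumors come from the 129B6F1 background.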

How the results depend on the processing

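Counts of called genes depended on which tumors were fitted. Against 166 genes higher and 252 lower, there were 89 and 146 with no filter, 272 and 529 with *MYCN* tumors in the fit, 1131 and 1746 with array weights, 7 and 18 in the 18 tumors of known background with no covariate, 8 and 2 with background and age, 1077 and 1513 in 129S2 alone and 0 and 0 in 129B6F1 alone. Equal array medians gave 132 and 164, background and sex as covariates 144 and 122, and males alone 212 and 119. The methods' t-test gave 126 and 211 after adjustment and 2280 at an unadjusted p under 0.05. Leaving out 1 tumor gave 67 to 320 higher and 89 to 512 lower. The fewest were without R1279Q tumors 18 (67 and 89) and 24 (70 and 95) and F1178L tumor 31 (69 and 104). The most were without F1178L tumors 1 (299 and 512) and 4 (320 and 417) and R1279Q tumor 5 (294 and 496). For the interaction, 7 genes became 1 to 56 without 1 tumor. The lowest array weight was that of a 129B6F1 tumor (0.27 for F1178L tumor 4) and the highest that of a 129S2 tumor (3.89 for F1178L tumor 30). Weights of both backgrounds overlapped, with 1.36 for F1178L tumor 37 in 129B6F1 and 0.818 for F1178L tumor 31 in 129S2. The cause of these shifts was not tested.

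Over the 93 named genes, 985 of the values under the other settings kept direction and side of the threshold, 317 lost the call, 49 gained one and 24 reversed. None of the reversed genes had been called in the pooled comparison. In 129B6F1 alone the difference became -0.36 for *Anxa5*, -0.91 for *Cd9*, -0.64 for *Dcn*, 1.19 for *Eif2s3y*, -0.37 for *Esyt1*, -0.55 for *Fabp7*, 0.043 for *Hes6*, 0.21 for *Hoxc8*, -0.43 for *Ifitm3*, -1.11 for *Phlda3*, -2.68 for *Phox2a*, -0.74 for *Scg2*, -0.23 for *Slc18a2*, 0.83 for *Thg1l*, -1.24 for *Tmtc1*, -0.46 for *Vgf* and -1.23 for *Vip*. With background and age it was -0.027 for *Fabp7*, 0.15 for *Hoxc8*, -0.20 for *Slc18a2* and -0.44 for *Vgf*, and in males alone -0.92 for *Adipoq*, -0.047 for *Slc18a2* and -0.028 for *Th*. Leaving out 1 tumor gave -0.033 to 0.237 for *Alk*, below 0 without F1178L tumor 28 or R1279Q tumors 5 or 9, and -0.071 to 0.42 for *Phox2a*, below 0 without F1178L tumors 28, 30 or 31 or R1279Q tumor 14. Of 62 called named genes, 27 kept the call in each of the 21 fits. No paired analysis was possible because the tumor numbers are unique to each tumor. Genes near log2 4 are limited by the signal over background of the arrays, and the size of a change there is less certain.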
